A study of Mus musculus with 24 samples.

Results

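The respiratory chain of the mitochondrion was followed here as 100 protein-coding genes out of the 29716 genes of the count table. They were taken by name: all genes whose symbol begins with Nduf, Uqcr, Cox4 to Cox8 or Atp5, the genes Sdha, Sdhb, Sdhc and Sdhd, and the mitochondrially encoded Nd, Co, Cytb and Atp genes. The name rule itself uses no measured value, but the members were chosen with earlier results of these data known. Of the 100 genes, 92 lie in the nuclear genome and 8 in the mitochondrial genome. They comprise 36 nuclear subunits of complex I (NADH dehydrogenase), 4 of complex II (succinate dehydrogenase), 8 of complex III (cytochrome bc1), 19 of complex IV (cytochrome c oxidase) and 16 of complex V (ATP synthase), with 9 assembly factors of complex I. Ndufa4 and Ndufa4l2 were placed in complex IV and Atp5sl among the assembly factors, since their proteins are now known to belong there. The mitochondrial genes mt-Co2, mt-Co3, mt-Atp6, mt-Atp8 and mt-Nd4l were not analysed here.

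The libraries came from C57BL/6J mouse embryos at stage E10.5, the age at which clusters of blood cells bud from the wall of the aorta. The heart was injected with either anti-Dll4, which blocks a membrane-bound ligand of Notch, or anti-human IgG as control. Culture lasted 5 h (37 °C, 5% CO2), and the medium held the injected antibody at 5 µg/ml, interleukin 3 at 10 ng/ml and hydrocortisone at 10 µM. Cells positive for CD31, a surface protein of endothelium and early blood cells, were sorted into 3 populations: Kit+ CD45-, Kit- CD41+ CD45- (written Kit- CD41+ below) and Kit+ CD45+. Each population under each antibody gave 4 libraries, so there were 6 groups and 24 libraries, and all groups shared the culture, the cytokine and the steroid. The labels do not say whether the replicates came from separate embryos or pools, so the p-values cover only the variation among the deposited samples. In bulk libraries, fewer cells of a type and less RNA per cell cannot be told apart.

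Electrons enter the chain at complexes I and II and pass through complex III and cytochrome c to complex IV, and the proton gradient that the chain builds drives ATP synthesis by complex V. Complex II is encoded wholly in the nucleus, whereas the core of the other complexes combines nuclear subunits with subunits made from mitochondrial DNA. Blood stem and progenitor cells are known to lean on glycolysis while quiescent and to raise mitochondrial respiration as they differentiate, and several subunits of complex IV exist as tissue-restricted isoforms.

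The libraries held 8718351 to 11379830 counts and 18063 to 21093 genes with a count. The genes of the sorted surface proteins followed the labels. Ptprc, which encodes CD45, ranged from 53.0 to 117 CPM (counts scaled to the effective size of each library) in Kit+ CD45+ libraries and was at most 1.51 CPM in the others. Globin transcripts differed between the populations and within them. They took 16.9% to 49.3% of all counts in Kit+ CD45- libraries, 4.18% to 14.1% in Kit- CD41+ libraries and at most 0.0226% in Kit+ CD45+ libraries. The 13 erythroid markers summed to 155000 to 947000 CPM in Kit+ CD45-, 41200 to 161000 in Kit- CD41+ and 89.5 to 221 in Kit+ CD45+ libraries. Slc4a1, the anion exchanger that defines red cells, had no count in Kit+ CD45+ libraries. The 9 macrophage markers summed to 317 to 2540 CPM in Kit+ CD45+, 83.1 to 126 in Kit- CD41+ and 18.9 to 37.0 in Kit+ CD45- libraries, and the 10 platelet markers were highest in Kit- CD41+ (21600 to 29000 CPM). The 10 endothelial markers summed to 1650 to 2240 CPM in Kit+ CD45+, 537 to 1880 in Kit+ CD45- and 336 to 601 in Kit- CD41+ libraries. The 6 mesenchymal markers summed to at most 258 CPM and the 5 markers of dividing cells to 842 to 1550 CPM in any library. The part of these other cells in the population differences below was not tested.

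Of the 100 members, 96 had enough counts to be tested: 89 nuclear genes and 7 mitochondrial genes. The 4 left out were Cox7b2, Cox6a2 and Cox8c, isoforms of complex IV known from testis or muscle, and mt-Nd3, which had 8 counts over all 24 libraries. For mt-Nd3, 98.0% of its 50-base windows also occur in the pseudogene Gm28438. A read that fits both copies is not counted for either by many counters, so the level of such a gene is uncertain. The same holds in part for mt-Nd4 (62.2% of windows shared), mt-Co1 (51.1%) and Ndufaf2 (80.9%). Levels of the nuclear members were also compared per kb of annotated exons. The median was 102 CPM per kb for the 13 genes that share at least 20% of their windows. It was 85.9 for the 29 that share 1% to under 20%, and 165 for the 50 that share less than 1%.

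**Figure D1:**
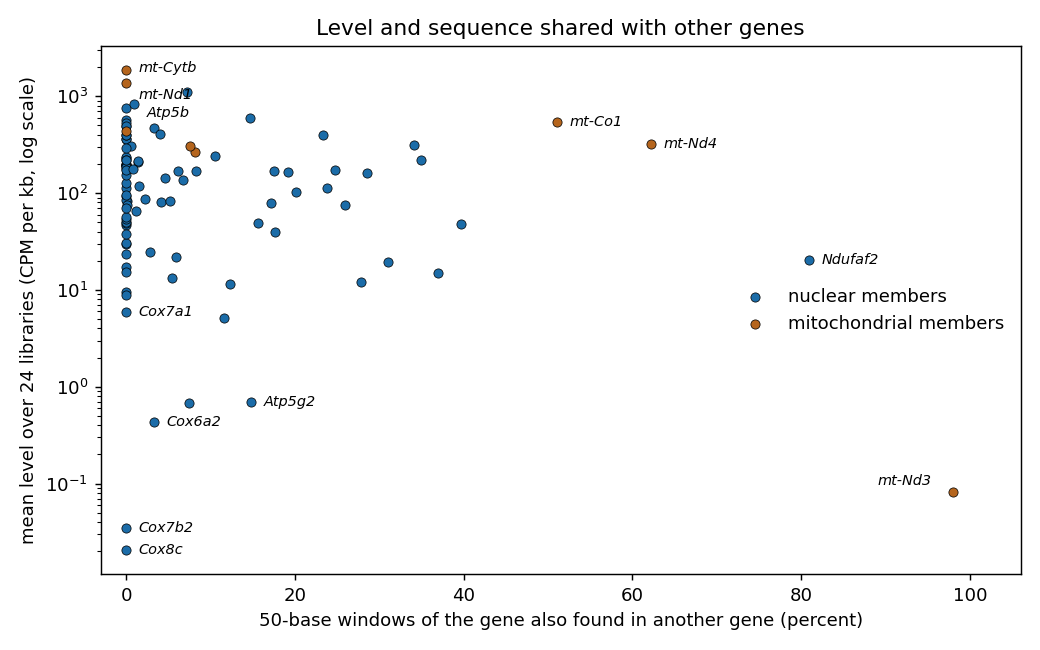
Each point is 1 of the 100 members, placed by the percent of its 50-base windows that also occur in another gene (horizontal axis) and by its mean level over the 24 libraries in CPM per kb (vertical axis, log scale). mt-Nd3, with 98.0% of windows shared, lies far below the other mitochondrial genes.

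Compared per kb of exons, the mitochondrial genes mt-Cytb and mt-Nd1 were the most abundant members, at 1870 and 1360 CPM per kb over all libraries. The length used joins all annotated exons of a gene and can exceed its transcripts, as for Ndufab1 (6883 bases, longest transcript 3479). Such genes may rank too low. mt-Cytb encodes cytochrome b of complex III and mt-Nd1 a membrane subunit of complex I. The most abundant nuclear member was Cox6a1 of complex IV (1110 CPM per kb), followed by Atp5b, the catalytic beta subunit of ATP synthase (841), and Cox6b1 (756). Within complex I the order was led by Ndufa2 (465 CPM per kb), Ndufb9 (399) and Ndufc2 (365). Assembly factors of complex I lay lower, with Ndufaf8 first at 49.0 CPM per kb. Complex II was led by Sdhd, a membrane anchor (493), ahead of the iron-sulfur subunit Sdhb (195), and complex III by Uqcr10 (575).

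As a share of all counts, the 8 mitochondrial members together took 0.507% ± 0.0480 (SD, n = 4) in Kit+ CD45- cells under IgG, 0.582% ± 0.0210 in Kit- CD41+ cells and 0.538% ± 0.0516 in Kit+ CD45+ cells. Under anti-Dll4 these shares were 0.515% ± 0.0886, 0.603% ± 0.0644 and 0.679% ± 0.110. The nuclear members took 2.42% ± 0.0540, 2.65% ± 0.113 and 2.84% ± 0.272 under IgG, and 2.37% ± 0.228, 2.62% ± 0.136 and 2.95% ± 0.320 under anti-Dll4. The order of the populations turned around when globin counts were taken out of the total. The nuclear share then became 3.33% in Kit+ CD45- against 2.85% in Kit- CD41+ cells under IgG, and 3.71% against 2.97% under anti-Dll4. The Kit+ CD45+ shares barely depended on globin. The ratio of nuclear to mitochondrial counts needs no library total, and it lay between 4.07 and 6.11 in single libraries with group means of 4.37 to 5.31. The mitochondrial sum lacks mt-Co2, mt-Co3, mt-Atp6, mt-Atp8 and mt-Nd4l and holds only 8 counts of mt-Nd3. It is uncertain for mt-Co1 and mt-Nd4, which share 51.1% and 62.2% of their windows with other genes. The mitochondrial shares and the ratio therefore describe the counted genes and not the balance of the nuclear and mitochondrial genomes.

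**Figure D2:**
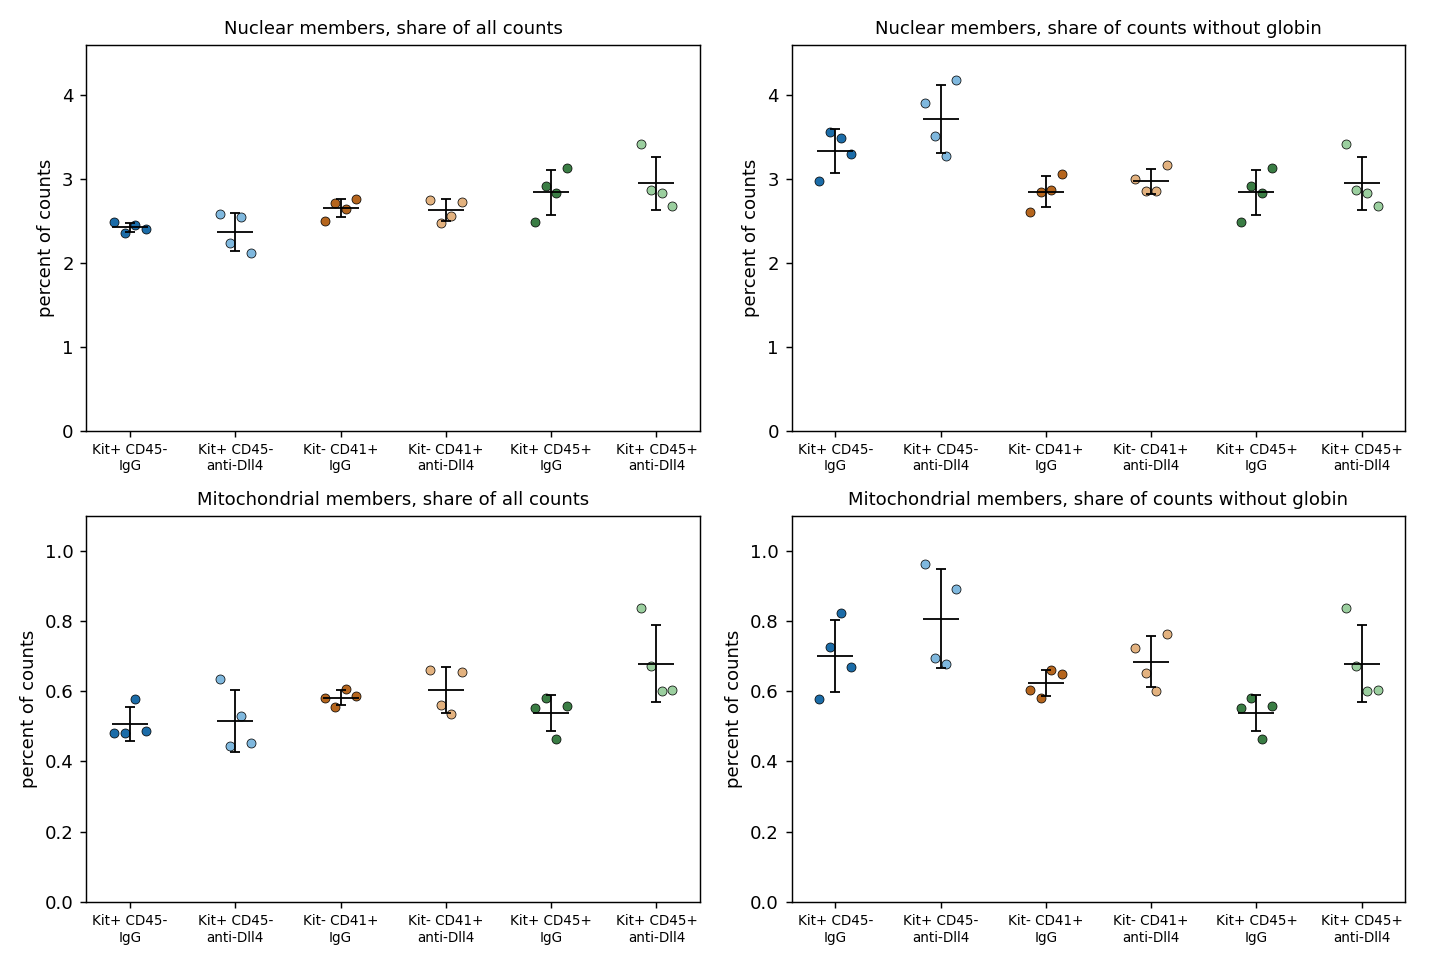
Points are libraries, horizontal bars group means and vertical bars SD (n = 4) for the percent of counts from nuclear members (top) and mitochondrial members (bottom), with all counts (left) or counts without globin (right) in the denominator. The Kit+ CD45- groups have the lowest nuclear share of all counts and the highest share of counts without globin.

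Promoter sequences in RefSeq (mouse build GRCm38.p6, 250 bases before to 50 after the annotated start) were matched for 76 of the 92 nuclear members. Both strands were searched for 4 motifs, those of NRF-1 (GCGCA, any base, GCGC), GABP (CCGGAAG), YY1 (AAGATGGCG) and ERRA (TCAAGGTCA), factors known to control respiratory genes. The NRF-1 motif was in 25.0% of the matched members and in 7.17% of 17492 protein-coding genes. The corresponding shares were 23.7% and 12.9% for GABP, 11.8% and 2.14% for YY1, and 2.63% and 0.377% for ERRA. A match is a string of letters and not a shown binding site. The sequences below belong to the isoform pair Cox6b1 and Cox6b2, of which the latter differed between the sorted populations, and to Ndufa6 and Atp5e, which were lower in Kit+ CD45+ than in Kit+ CD45- cells. Capitals mark the GABP motif in Cox6b1 and Atp5e and the NRF-1 motif in Ndufa6. The Cox6b2 window held none of the 4 motifs. The windows of Ndufb2, Ndufaf3 and Ndufa4, not shown, also held none. Ndufb2 was likewise lower in Kit+ CD45+ than in Kit+ CD45- cells, and whether a motif goes with a lower level was not tested. All windows shown lie on the minus strand and are written 5′ to 3′ in the direction of transcription, at chr7:30626065-30626364 (Cox6b1), chr7:4753045-4753344 (Cox6b2), chr15:82354242-82354541 (Ndufa6) and chr2:174464052-174464351 (Atp5e).
Cox6b1: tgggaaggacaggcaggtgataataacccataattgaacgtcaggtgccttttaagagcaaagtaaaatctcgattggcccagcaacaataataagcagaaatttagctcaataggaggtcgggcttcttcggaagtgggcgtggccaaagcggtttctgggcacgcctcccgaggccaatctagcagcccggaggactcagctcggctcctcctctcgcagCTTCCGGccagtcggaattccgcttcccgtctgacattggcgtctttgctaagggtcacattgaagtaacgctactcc
Cox6b2: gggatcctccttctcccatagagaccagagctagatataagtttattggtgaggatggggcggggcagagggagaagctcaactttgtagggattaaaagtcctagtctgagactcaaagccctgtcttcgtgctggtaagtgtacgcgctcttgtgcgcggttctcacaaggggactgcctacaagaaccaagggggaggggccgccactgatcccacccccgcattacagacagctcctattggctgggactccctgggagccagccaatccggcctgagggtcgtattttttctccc
Ndufa6: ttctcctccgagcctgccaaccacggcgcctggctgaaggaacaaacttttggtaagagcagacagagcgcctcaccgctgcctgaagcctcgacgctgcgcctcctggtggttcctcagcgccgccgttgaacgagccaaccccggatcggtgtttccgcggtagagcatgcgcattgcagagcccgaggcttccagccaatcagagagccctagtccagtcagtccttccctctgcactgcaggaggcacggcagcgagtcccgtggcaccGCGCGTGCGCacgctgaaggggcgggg
Atp5e: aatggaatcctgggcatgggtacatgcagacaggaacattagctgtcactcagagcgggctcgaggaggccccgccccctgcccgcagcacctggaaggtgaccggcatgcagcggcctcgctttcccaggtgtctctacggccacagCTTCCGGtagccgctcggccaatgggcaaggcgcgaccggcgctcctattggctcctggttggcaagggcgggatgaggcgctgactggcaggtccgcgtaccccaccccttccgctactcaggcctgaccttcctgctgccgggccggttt

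A pair of isoform subunits of complex IV separated the sorted populations more than any other of the 96 tested members. From the lowest to the highest mean of all 6 groups, Cox6b2 differed 21.1-fold and Cox4i2 12.7-fold, and the next tested member, Ndufa4l2, 3.52-fold. These folds span both antibodies as well as the populations. Cox6b2 was highest in Kit+ CD45- cells under anti-Dll4 and lowest in Kit+ CD45+ cells under IgG. Cox4i2 had its highest and lowest means in the same 2 populations, under IgG and anti-Dll4. Folds within each antibody are given below. Cox6a2, with 67 counts over all libraries, was too rare to be tested and is left out of this order. Cox4i2, an alternative form of subunit 4 known from lung and from hypoxic cells, was higher in Kit+ CD45+ cells. Cox6b2, an alternative form of subunit 6b known mainly from testis, was lower there. The broadly used partners Cox4i1 and Cox6b1 passed the test in none of the population comparisons.

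In Kit+ CD45+ libraries Cox4i2 (ENSMUSG00000009876, chr2:152754173-152765037) stood at 49.8, 18.5, 41.7 and 34.2 CPM under IgG and at 51.8, 16.3, 25.8 and 30.5 under anti-Dll4. In Kit+ CD45- libraries it stood at 4.33, 3.55, 4.71 and 4.66 CPM under IgG and at 4.37, 3.78, 1.2 and 1.97 under anti-Dll4. In Kit- CD41+ libraries it stood at 3.68, 1.06, 6.11 and 2.44 CPM under IgG and at 3.92, 4.94, 2.51 and 3.45 under anti-Dll4. Every Kit+ CD45+ library lay above every library of the other populations, and the groups did not overlap. The log2 fold change of Kit+ CD45+ against Kit+ CD45- cells was 3.06 ± 0.44 (SE) under IgG (edgeR quasi-likelihood test with Benjamini-Hochberg adjustment, adjusted p = 2.41e-05) and 3.45 ± 0.46 under anti-Dll4 (6.3e-06, edgeR). Against Kit- CD41+ cells it was 3.44 ± 0.45 under IgG and 3.06 ± 0.45 under anti-Dll4 (edgeR adjusted p = 1.81e-06 and 7.42e-06). Per length, Cox4i2 made up 8.37% ± 4.39 (SD, n = 4) of the subunit 4 transcripts in IgG-treated Kit+ CD45+ cells and 6.25% ± 1.81 in those given anti-Dll4. In the other groups the mean share was between 0.514% and 0.946%, so Cox4i1 remained the main form in every group.

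Cox6b2 (ENSMUSG00000051811, chr7:4751792-4753094) ran the other way. Its level was 54.9, 104, 108 and 93.8 CPM in Kit+ CD45- libraries under IgG and 111, 133, 57.3 and 233 under anti-Dll4. In Kit- CD41+ libraries it was 55.3, 57.1, 55.9 and 68.5 CPM under IgG and 72.8, 74.0, 59.6 and 87.2 under anti-Dll4. In Kit+ CD45+ libraries it was 4.12, 6.43, 6.93 and 7.80 CPM under IgG and 15.2, 7.82, 12 and 8.84 under anti-Dll4. All Kit+ CD45+ libraries were below all others, and the 4 anti-Dll4 libraries of that population were each above its 4 IgG libraries. Cox6b2 fell by 3.84 ± 0.33 (SE) on the log2 scale from Kit+ CD45- to Kit+ CD45+ cells under IgG and fell by 3.61 ± 0.33 under anti-Dll4 (edgeR adjusted p = 1.38e-08 and 2.03e-08). From Kit- CD41+ to Kit+ CD45+ cells it fell by 3.23 ± 0.33 and fell by 2.75 ± 0.32 (edgeR adjusted p = 3.97e-08 and 2.7e-07). Per length, its share of subunit 6b transcripts had group means of 6.71% to 11.3% in the CD45- populations and was 0.888% ± 0.0491 (SD, n = 4) under IgG and 1.44% ± 0.355 under anti-Dll4 in Kit+ CD45+ cells. None of its 50-base windows occurs in another gene, and the same was found for Cox4i2.

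Other isoform pairs were closer to even. Ndufa4l2, a hypoxia-responsive relative of Ndufa4, was at 5.81 to 21.7 CPM in Kit+ CD45- and at 0.885 to 8.61 CPM in Kit- CD41+ libraries under IgG, and these ranges overlapped. Its log2 fold change between them was 1.77 ± 0.63 (SE) with an edgeR adjusted p of 0.0374. That call was lost without any of 5 libraries, Kit+ CD45- IgG replicate 2 or 3 or Kit- CD41+ IgG replicate 1, 2 or 4, with adjusted p up to 0.116. Cox7a1, the muscle form of subunit 7a, was rare at 1.03 to 5.71 CPM. Under anti-Dll4 its 4 Kit+ CD45- libraries (1.09 to 3.30 CPM) lay below its 4 Kit- CD41+ libraries (4.92 to 5.54), a log2 fold change of -1.41 ± 0.40 (edgeR adjusted p = 0.00971). Of the 3 genes for subunit c of ATP synthase, Atp5g3 supplied 98.4% to 99.2% of the transcripts per length in every library. Atp5g1 and Atp5g2 share 11.6% and 14.8% of their windows with other genes, whereas Atp5g3 shares none. The counts of Atp5g1 and Atp5g2 (5800 and 287 over all libraries, against 260894) may thus be too low. The exon length used was also larger for Atp5g1 (4912 bases) than for Atp5g3 (2181), so this share is uncertain.

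**Figure D3:**
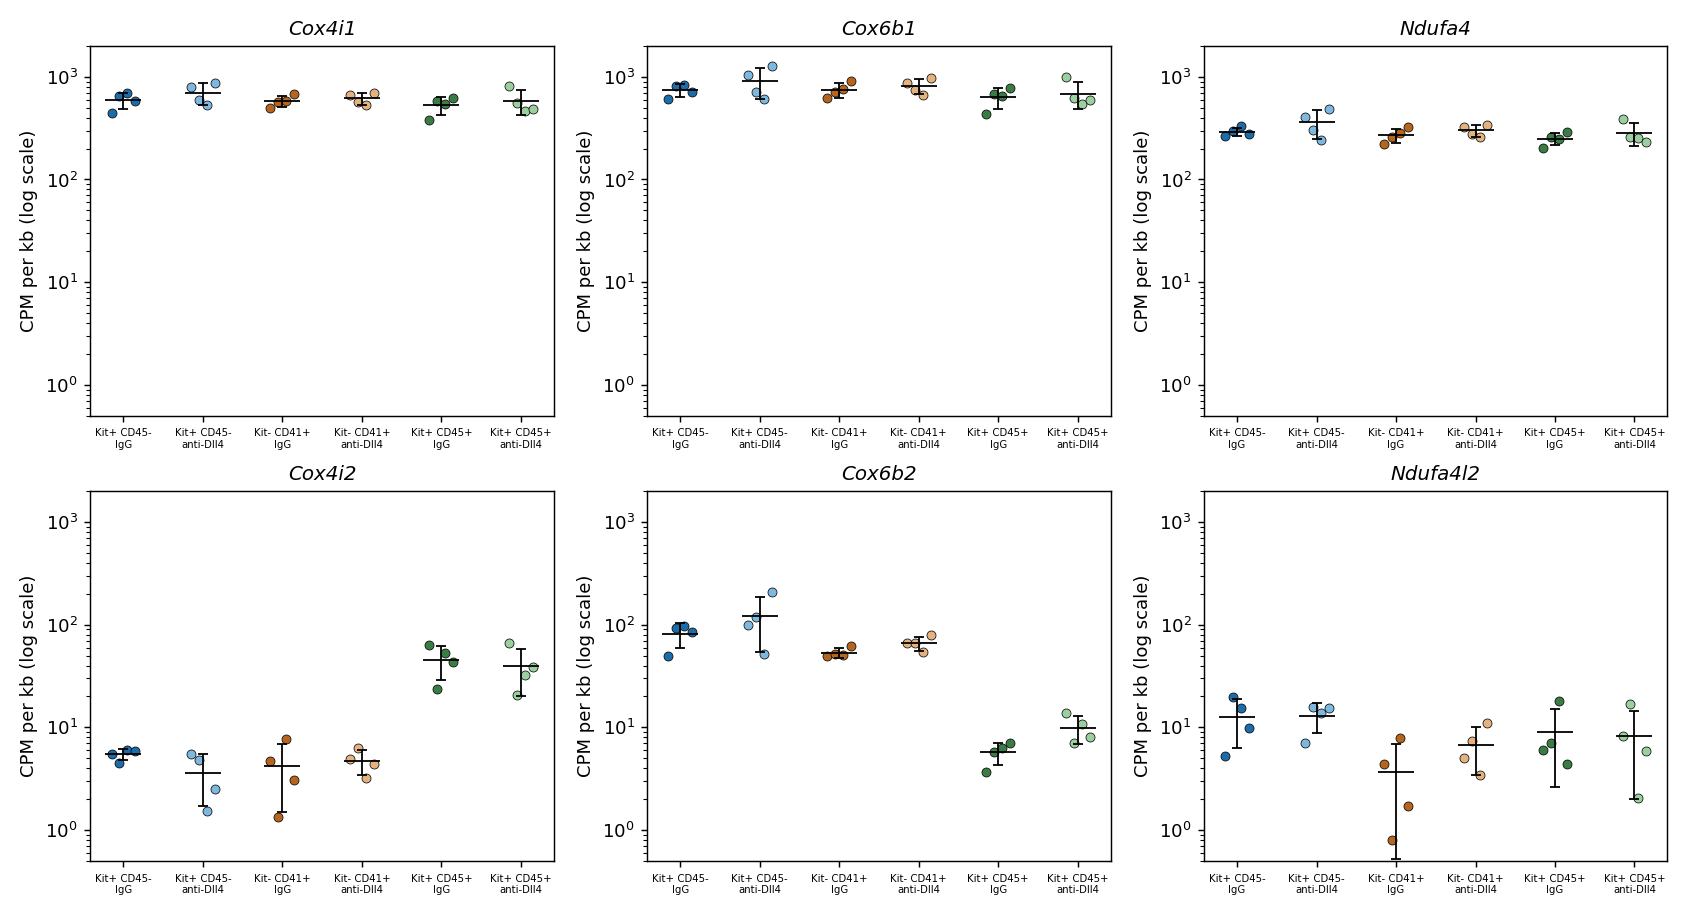
CPM per kb on a log axis for 3 broadly used complex IV genes (top) and their alternative isoforms (bottom), with points for libraries, horizontal bars for means and vertical bars for SD (n = 4). Cox4i2 is higher and Cox6b2 lower in the Kit+ CD45+ groups, while Cox4i1, Cox6b1 and Ndufa4 are nearly level.

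Beyond these isoforms, most members were lower in Kit+ CD45+ than in Kit+ CD45- cells by a small amount. Under IgG, 86 of 96 members had a negative log2 fold change and the median was -0.38, beside 0.04 over all 15618 tested genes. At an adjusted p under 0.05 (edgeR), 17 members were called, 15 lower and 2 higher. Over all tested genes 19.2% were called, 9.18% lower and 10% higher, so the share of lower calls among members was above the background and that of higher calls below it. Under anti-Dll4, which used other libraries, the median was -0.53 beside 0.1 over all genes, with 48 members called, 46 lower and 2 higher, against backgrounds of 29.2%, 12.6% and 16.6%. All 15 members called lower under IgG were among the 46 called lower under anti-Dll4 (32.6% of that list). The higher members were Cox4i2 and Atp5sl in both arms. The 4 libraries of each group were fully apart and lower for 18 members under IgG (background 8.79%) and for 7 under anti-Dll4 (9.36%). The count of 17 called members under IgG became 7 without Kit+ CD45+ replicate 1, 8 and 9 without Kit+ CD45- replicates 2 and 3, 11 without Kit+ CD45+ replicate 3 and 27 without Kit+ CD45- replicate 1. The count of 48 under anti-Dll4 became 26 without Kit+ CD45- replicate 4 and 31 without Kit+ CD45+ replicate 4.

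Complex I carried the most lower calls, 8 of 36 subunits under IgG and 21 of 36 under anti-Dll4, both above the share of all tested genes called lower (9.18% and 12.6%). Ndufa6, an accessory subunit that binds the acyl carrier protein, was at 149, 284, 284 and 234 CPM in Kit+ CD45- libraries and at 94.1, 118, 128 and 127 CPM in Kit+ CD45+ libraries under IgG. Under anti-Dll4 the values were 343, 308, 191 and 530 CPM against 206, 126, 117 and 110. The IgG groups did not overlap, whereas under anti-Dll4 the highest Kit+ CD45+ library passed the lowest Kit+ CD45- library. On the log2 scale Ndufa6 fell by 1.02 ± 0.25 under IgG (SE, edgeR adjusted p = 0.00468) and fell by 1.29 ± 0.25 under anti-Dll4 (3.9e-04). Ndufb2, another accessory subunit, was at 126, 105, 77.0 and 179 CPM in Kit+ CD45- libraries and at 77.2, 48.3, 42.9 and 43.2 in Kit+ CD45+ libraries under anti-Dll4. The Kit+ CD45+ value of replicate 1 just exceeded the lowest Kit+ CD45- value. Ndufb2 fell by 1.2 ± 0.23 on the log2 scale there (edgeR adjusted p = 3.63e-04). Of the 3 X-linked members, Ndufa1 of complex I fell by 0.89 ± 0.26 and Cox7b of complex IV fell by 0.60 ± 0.21 under anti-Dll4 (edgeR adjusted p = 0.0109 and 0.0359). Both calls were lost without Kit+ CD45- replicate 4 (log2 fold changes of -0.62 and -0.37), and that of Cox7b also without Kit+ CD45- replicate 1 or Kit+ CD45+ replicate 2, 3 or 4. Ndufb11, the last of the 3, was at -0.53 ± 0.20 (0.052, edgeR).

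The complex II genes Sdha, Sdhb, Sdhc and Sdhd were not called in any of the 6 population comparisons in the fit without a replicate block, and their median log2 fold change from Kit+ CD45- to Kit+ CD45+ cells under IgG was 0.01. The 4 genes made up 6.32% to 6.90% of the nuclear members' CPM in Kit+ CD45+ libraries and 4.50% to 6.33% in the others. Sdhd was at 481, 659, 637 and 797 CPM in Kit+ CD45+ and at 438, 555, 512 and 610 CPM in Kit- CD41+ libraries under IgG, so the groups overlapped. Its log2 fold change was 0.28 ± 0.15 (SE, edgeR adjusted p = 0.156), and without Kit+ CD45+ IgG replicate 1 it was 0.40 (0.045). Whether complex II differs from the other complexes was not tested.

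In complex III, 1 of 8 subunits was called lower in Kit+ CD45+ than in Kit+ CD45- cells under IgG and 5 of 8 under anti-Dll4. Against backgrounds of 9.18% and 12.6%, a single gene of 8 is close to the share of all genes, and the anti-Dll4 count is above it. Uqcrq, a small subunit next to cytochrome b, was at 216, 346, 338 and 309 CPM in Kit+ CD45- and at 136, 197, 187 and 225 CPM in Kit+ CD45+ libraries under IgG. Only the highest Kit+ CD45+ library reached into the Kit+ CD45- range. Uqcrq fell by 0.70 ± 0.23 (SE, edgeR adjusted p = 0.0332) under IgG and fell by 1.1 ± 0.23 (8.72e-04) under anti-Dll4. The IgG call was lost without Kit+ CD45+ replicate 1, 2 or 3 or Kit+ CD45- replicate 2, 3 or 4, with adjusted p up to 0.112. Cox6a1 of complex IV, a small subunit near cytochrome c, fell by 0.75 ± 0.24 under IgG (0.0273, edgeR) and fell by 1.11 ± 0.24 under anti-Dll4 (0.0011). Its IgG call was lost without Kit+ CD45+ replicate 1 or Kit+ CD45- replicate 2 or 3, with adjusted p up to 0.1.

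In complex V, 1 of 16 subunits was called lower under IgG, a share below the background of 9.18%, and 9 of 16 under anti-Dll4, above the background of 12.6%. Atp5e, the epsilon subunit of the ATP synthase stalk, was at 261, 385, 410 and 352 CPM in Kit+ CD45- and at 141, 205, 201 and 223 CPM in Kit+ CD45+ libraries under IgG. These groups did not overlap. Under anti-Dll4 it was at 489, 426, 305 and 796 against 331, 195, 197 and 175 CPM, where replicate 1 of Kit+ CD45+ reached the other group's range. Atp5e fell by 0.87 ± 0.24 under IgG (SE, edgeR adjusted p = 0.0109) and fell by 1.17 ± 0.24 under anti-Dll4 (6.89e-04). Atp5b, named after its values were seen because it was the most abundant complex V member per kb, was at 3060 to 3540 CPM in Kit+ CD45+ and at 3370 to 4120 CPM in Kit+ CD45- libraries under IgG, ranges that overlapped.

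Assembly factors moved in both directions. Atp5sl, whose protein helps assemble the distal arm of complex I, was at 44.8, 37.0, 39.5 and 47.3 CPM in Kit+ CD45+ libraries under IgG and at 39.8, 40.1, 49.5 and 39.4 under anti-Dll4. In Kit- CD41+ libraries it was at 16.8 to 23.6 CPM under IgG and at 16.1 to 20.3 under anti-Dll4, and in Kit+ CD45- libraries at 23.1 to 34.7 and at 16.2 to 27.5. All Kit+ CD45+ libraries were above all others. Against Kit- CD41+ cells the log2 fold change was 1.04 ± 0.17 (SE, edgeR adjusted p = 2.9e-05) under IgG and 1.24 ± 0.17 (3.23e-06) under anti-Dll4. Against Kit+ CD45- cells it was 0.93 ± 0.17 (2.15e-04) under anti-Dll4 and 0.56 ± 0.17 (0.0211) under IgG. The last of these calls was lost without Kit+ CD45+ replicate 1 or 4 or Kit+ CD45- replicate 2 or 3, with edgeR adjusted p up to 0.0861. Ndufaf1, an early assembly factor, fell by 0.69 ± 0.18 (edgeR adjusted p = 0.00858) from Kit+ CD45- to Kit+ CD45+ cells under IgG and fell by 1.00 ± 0.18 (2.42e-04) under anti-Dll4.

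Kit- CD41+ cells had the highest levels of a second set of members. Ndufaf3, an assembly factor of the complex I matrix arm, was at 66.0, 75.2, 81.5 and 95.5 CPM in Kit- CD41+ libraries under IgG. It was at 32.4, 44.7, 47.6 and 41.5 CPM in Kit+ CD45- and at 24.7, 36.0, 33.8 and 42.9 CPM in Kit+ CD45+ libraries. Every Kit- CD41+ library was above every other IgG library, and under anti-Dll4 (74.5 to 90.7 CPM against at most 61.7) the same held. Ndufaf3 fell by 0.94 ± 0.20 (SE) from Kit- CD41+ to Kit+ CD45- cells and fell by 1.21 ± 0.20 to Kit+ CD45+ cells under IgG (edgeR adjusted p = 9.87e-04 and 3.89e-05). Under anti-Dll4 it fell by 0.76 ± 0.20 and fell by 1.23 ± 0.20 (edgeR adjusted p = 0.00554 and 3.24e-05). Ndufaf3 overlaps the gene Impdh2, so some of its counts are uncertain where reads lie in the overlap.

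Ndufa3 and Ndufv3, accessory subunits of complex I, were likewise highest in Kit- CD41+ cells under IgG. Under anti-Dll4, Kit+ CD45- replicate 4 reached into the Kit- CD41+ range for both genes. Ndufa3 was at 274, 281, 329 and 364 CPM in Kit- CD41+ libraries and at 94.5, 151, 144 and 157 CPM in Kit+ CD45+ libraries under IgG, with no overlap. It fell by 1.19 ± 0.22 (SE) between them (edgeR adjusted p = 1.55e-04). Ndufv3 was at 257, 244, 291 and 310 CPM in Kit- CD41+ and at 125, 184, 195 and 169 CPM in Kit+ CD45- libraries under IgG, also with no overlap. It fell by 0.71 ± 0.19 from Kit- CD41+ to Kit+ CD45- cells under IgG (edgeR adjusted p = 0.00736) and fell by 0.97 ± 0.19 from Kit- CD41+ to Kit+ CD45+ cells under anti-Dll4 (3.28e-04). From Kit- CD41+ to Kit+ CD45- cells under anti-Dll4, Ndufv3 fell by 0.52 ± 0.19 (0.0442, edgeR). That call was lost with RLE or upper-quartile scaling, without globin genes and in the fit of the 2 groups alone, with edgeR adjusted p up to 0.174. It was also lost with DESeq2. Atp5f1, the b subunit of the ATP synthase stator, fell by 0.53 ± 0.16 from Kit- CD41+ to Kit+ CD45+ cells under IgG (0.0102, edgeR).

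From Kit- CD41+ to Kit+ CD45+ cells, 83 of 96 log2 fold changes were negative under IgG and the median was -0.34, beside 0.05 over all tested genes. There 21 members were called, 19 lower and 2 higher, against backgrounds of 37.2%, 17.5% and 19.7% (edgeR). Under anti-Dll4 the median was -0.27 beside 0.06, with 19 called, 17 lower and 2 higher, against 37.6%, 17.3% and 20.4%. The groups were fully apart and lower for 31 members under IgG (background 19%) and for 14 under anti-Dll4 (17.6%). In this fit without a replicate block, the share of members called lower was thus close to the background in both arms, while the share called higher was below it. With the block, 37 members were called lower under IgG and 30 under anti-Dll4. All genes called in either direction meanwhile rose only from 5815 to 6138 and from 5875 to 6132. In the fit without the block, 12 of the members called lower were common to both arms, 63.2% of the 19 and 70.6% of the 17. They were, named here after their values were seen, Atp5f1, Cox6a1, Cox6b2, Ndufa11, Ndufa13, Ndufa3, Ndufa6, Ndufaf3, Ndufb9, Ndufv3, mt-Co1 and mt-Nd5. The IgG count of 21 became 13 without Kit- CD41+ replicate 3 or 4 or Kit+ CD45+ replicate 3. The anti-Dll4 count of 19 became 44 without Kit+ CD45+ replicate 1, 11 without Kit- CD41+ replicate 4 and 10 without Kit+ CD45+ replicate 3 or 4. This comparison shares its Kit+ CD45+ libraries with the one against Kit+ CD45- cells.

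Between Kit+ CD45- and Kit- CD41+ cells few members were called. Under IgG 7 were called, 3 higher and 4 lower in Kit+ CD45- cells, against backgrounds of 27.9%, 14% and 13.8%, and the members' median of 0.04 was near that of all genes (0.06). Under anti-Dll4 16 were called, 12 higher and 4 lower, against 29.9%, 14.7% and 15.2%, with medians of 0.24 and 0.07. All of these shares lay below the background. With upper-quartile scaling, which moved the median of all genes from 0.06 to 0.16 and from 0.07 to 0.21, the counts were 4 higher and 2 lower under IgG and 18 higher and 2 lower under anti-Dll4. Of all 15618 tested genes, 2676 and 3147 were then called higher, beside 2194 and 2291 with the main scaling. Uqcrfs1, the Rieske iron-sulfur protein of complex III, was higher in Kit+ CD45- cells in both arms. It was at 430, 354, 306 and 456 CPM in Kit+ CD45- and at 273, 264, 257 and 323 CPM in Kit- CD41+ libraries under anti-Dll4, and 1 library of each group overlapped the other. Its log2 fold change was 0.47 ± 0.13 (SE, edgeR adjusted p = 0.00729) under anti-Dll4 and 0.35 ± 0.13 (0.045) under IgG. The IgG call was lost without any of 7 of the 8 libraries (all but Kit+ CD45- replicate 1), with adjusted p up to 0.191. The IgG count of 7 fell to 4 without Kit- CD41+ replicate 1, 2 or 4 or Kit+ CD45- replicate 4 and to 3 without Kit- CD41+ replicate 3. The anti-Dll4 count of 16 fell to 9, 8 and 8 without Kit- CD41+ replicates 1, 2 and 3 and to 6 without Kit+ CD45- replicate 4.

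Under anti-Dll4 the higher members included Ndufb2, the ATP synthase subunit Atp5e and Ndufaf4, an assembly factor of the complex I matrix arm. Their log2 fold changes from Kit- CD41+ to Kit+ CD45- cells were 0.80 ± 0.23, 0.73 ± 0.24 and 0.71 ± 0.20 (SE, edgeR adjusted p = 0.00956, 0.0213 and 0.00994). Cox6b2 had a log2 fold change of 0.86 ± 0.29 (0.0283, edgeR). All of these calls were lost without Kit+ CD45- anti-Dll4 replicate 4, where the values were 0.54, 0.40, 0.54 and 0.44. Atp5e also lost its call without Kit- CD41+ replicate 3, and Cox6b2 without Kit- CD41+ replicate 1, 2 or 3 or Kit+ CD45- replicate 2. Kit+ CD45- replicate 4 had the highest level of the 4 genes in its group. Of all libraries it had the most globin (49.3% of counts) and the fewest genes with a count (18063). Its nuclear members took the lowest share of all counts (2.12%) yet summed to the highest CPM (40400). Why the CPM levels of this library were high was not tested.

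**Figure D4:**
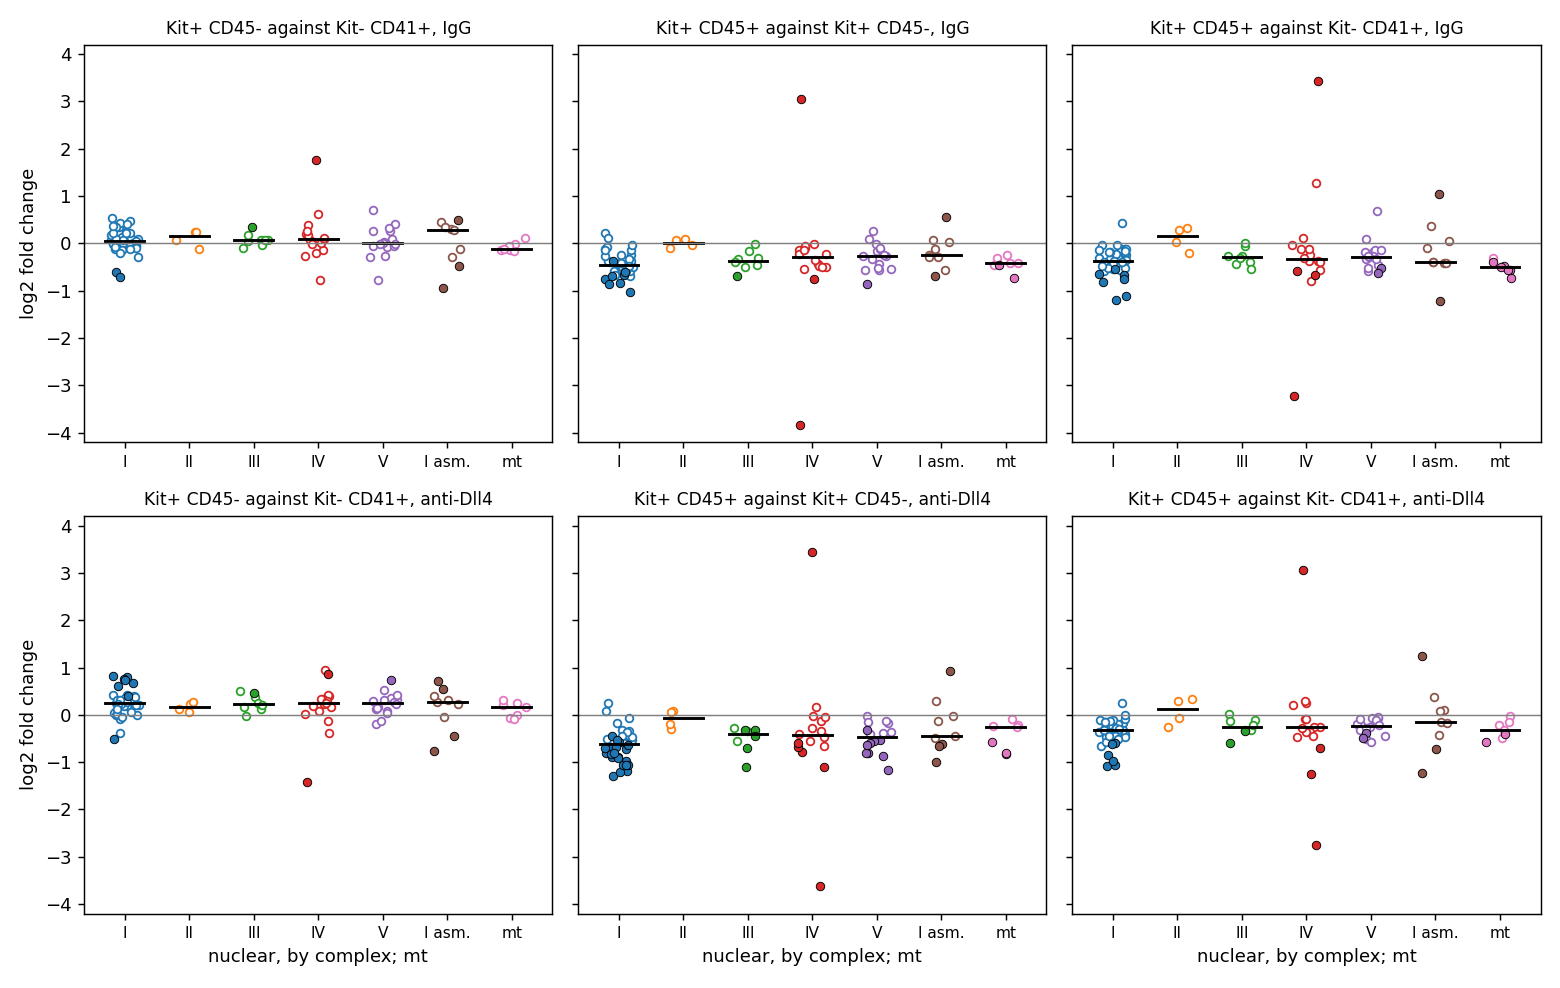
Log2 fold changes of the 96 tested members (points) by complex for nuclear genes and as 1 class for mitochondrial genes (mt), in the 3 population comparisons under IgG (top) and anti-Dll4 (bottom). Filled points passed an adjusted p of 0.05, black bars are medians, and in the panels with Kit+ CD45+ cells the highest point of complex IV is Cox4i2 and the lowest Cox6b2.

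The mitochondrially encoded members followed the direction of the nuclear ones where Kit+ CD45+ cells were compared. Their median log2 fold change against Kit+ CD45- cells was -0.41 under IgG and -0.25 under anti-Dll4, and against Kit- CD41+ cells -0.51 and -0.33. The nuclear medians of these comparisons were -0.36, -0.53, -0.30 and -0.27. Against Kit- CD41+ cells under IgG, 6 of 7 mitochondrial genes were called lower (all but mt-Nd1), beside 13 of 89 nuclear members and 17.5% of all tested genes. Under anti-Dll4 it was 2 of 7, beside 17.3% of all tested genes.

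mt-Co1, the catalytic subunit of complex IV, was at 422, 632, 435 and 534 CPM in Kit+ CD45+ libraries under IgG. It was at 763, 829, 882 and 899 CPM in Kit- CD41+ and at 478, 1030, 989 and 859 CPM in Kit+ CD45- libraries. Kit+ CD45+ and Kit- CD41+ libraries did not overlap, and Kit+ CD45- replicate 1 lay among the Kit+ CD45+ values. mt-Co1 fell by 0.74 ± 0.21 (SE, edgeR adjusted p = 0.00723) from Kit- CD41+ to Kit+ CD45+ cells and fell by 0.73 ± 0.21 (0.0151) from Kit+ CD45- cells. The latter call was lost without Kit+ CD45+ replicate 1 or 3 or Kit+ CD45- replicate 2 or 3, with adjusted p up to 0.0633. Under anti-Dll4 the fall from Kit+ CD45- cells was 0.82 ± 0.21 (edgeR adjusted p = 0.00455).

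mt-Nd4, a proton-pumping subunit of complex I, was at 455, 448, 506 and 518 CPM in Kit- CD41+ and at 309, 367, 282 and 337 CPM in Kit+ CD45+ libraries under IgG, with no overlap. It fell by 0.57 ± 0.16 (SE, edgeR adjusted p = 0.00718). mt-Nd5, which pumps protons at the far end of the same arm, fell by 0.51 ± 0.16 there (0.0138, edgeR), and without Kit+ CD45+ replicate 3 by 0.41 (0.0609). The remaining calls under IgG, those of mt-Nd6, mt-Cytb and mt-Nd2, had adjusted p of 0.0296, 0.0341 and 0.0449 (edgeR). Each was lost on leaving out Kit- CD41+ replicate 1 or 3 or Kit+ CD45+ replicate 3, among other libraries (Kit+ CD45+ replicate 1 for mt-Nd6 and mt-Cytb, Kit+ CD45+ replicates 2 and 4 for mt-Nd2, and Kit- CD41+ replicate 4 for mt-Cytb and mt-Nd2). mt-Nd6 lies on the opposite strand to mt-Nd5 and overlaps it, and without strand-aware counting their reads in the overlap cannot be told apart.

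The antibody comparison asked whether blocking Dll4 changed the same genes within a population. No member passed an adjusted p of 0.05 in Kit+ CD45-, Kit- CD41+ or Kit+ CD45+ cells, nor in the mean effect over the populations or the difference of the effect between them (edgeR). Over all 15618 genes the shares called were 0%, 0%, 0.0064%, 0% and 0.0256%. DESeq2 called no member either. Detection was tried on simulated counts, with each gene's mean over all 24 libraries and the common dispersion of all groups as the spread. Genes were drawn independently, and changes were added to the anti-Dll4 Kit+ CD45- group. There 18% of genes changed by 1 on the log2 scale and 98% of genes changed by 2 were called. Real members are not independent of each other, and their own spread can differ from the common dispersion. The members named below for this comparison had SE of 0.20 to 0.26. These rates therefore need not hold for the members.

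The direction of the antibody folds was uneven all the same. In Kit+ CD45- cells, 90 of 96 members (93.8%) had a positive log2 fold change, beside 46.3% of all tested genes. The counts were 87 in Kit- CD41+ cells and 80 in Kit+ CD45+ cells, 90.6% and 83.3% beside 47.5% and 49.7%. The members' medians were 0.29, 0.11 and 0.15, against -0.03, -0.01 and 0 over all genes. At an unadjusted p under 0.05, 12 members were higher and 1 lower in Kit+ CD45- cells, none in Kit- CD41+ cells and 5 higher in Kit+ CD45+ cells. The backgrounds for higher genes at that level were 3.43%, 1.15% and 1.72%, and those for lower genes were 7.67%, 1.64% and 1.18%. For the mean effect, 89 of 96 members were positive and at that level 21 were higher and 0 lower (backgrounds 3.23% and 5.16%). For the difference between populations 0 members passed that level (background 4.04%). In Kit+ CD45- cells the positive members were 35 of 36 in complex I (median 0.36), 3 of 4 in complex II (0.11), all 8 in complex III (0.22), 13 of 16 in complex IV (0.29), all 16 in complex V (0.26) and 8 of 9 assembly factors (0.19).

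The members moved together from library to library, so these folds are not separate observations. The 68 nuclear members with a transcript of at most 1000 bases summed to 22700, 17900, 14100 and 28300 CPM in Kit+ CD45- libraries under anti-Dll4. Under IgG they summed to 13100, 18500, 18600 and 16000 CPM. Replicates 1 and 4 of the anti-Dll4 group were the highest, its replicate 3 was near the lowest IgG library, and the groups overlapped. Without anti-Dll4 replicate 4 the nuclear median in this population was 0.13. In Kit+ CD45+ cells the nuclear median of 0.14 became -0.03 without anti-Dll4 replicate 1 and the mitochondrial median of 0.37 became 0.21. With the globin share of each library as a covariate, 14 of 96 folds in Kit- CD41+ cells were positive, and the nuclear median there was -0.11. Globin took 8.34% to 14.1% of counts in the anti-Dll4 libraries of Kit- CD41+ cells and 4.18% to 9.79% in their IgG libraries. Without replicate 1 of both Kit+ CD45- IgG and Kit+ CD45+ IgG, 54 of 96 folds in Kit+ CD45+ cells were positive, beside 90 in Kit+ CD45- and 87 in Kit- CD41+ cells.

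Transcript length was a shared feature of the members. The median transcript of the tested nuclear members was 711 bases, against 2133.5 bases over 13135 protein-coding genes. Among other protein-coding genes with at most 1000 bases, 54.5% of 2314 had a positive antibody fold in Kit+ CD45- cells and the median was 0.04, beside 62 of 65 members of that length and a median of 0.33. For Kit+ CD45+ against Kit+ CD45- cells under IgG, the medians at that length were -0.40 for members and -0.03 for other genes.

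Of single genes, Ndufa5 of complex I had the smallest p of its complex in Kit+ CD45- cells. It was at 211, 158, 120 and 303 CPM under anti-Dll4 and at 81.1, 150, 148 and 128 under IgG, which overlapped, and its log2 fold change was 0.64 ± 0.26 (SE, edgeR adjusted p = 0.4). The corresponding genes of the other classes were Sdhb (0.26 ± 0.20), Uqcrq (0.52 ± 0.23), Cox6a1 (0.49 ± 0.24), Atp5e (0.52 ± 0.23) and the assembly factor Ndufaf8 (0.56 ± 0.24), with edgeR adjusted p of 0.412 to 0.631. In Kit- CD41+ cells Ndufa4l2 had the highest log2 fold change, 0.87 ± 0.62 (adjusted p = 1, edgeR). Cox6b2 had a log2 fold change of 0.79 ± 0.32 in Kit+ CD45+ cells (adjusted p = 1, edgeR) and a mean effect of 0.56 ± 0.17 over the populations (0.503). It was 1 of 2 members whose 4 anti-Dll4 libraries all lay above the 4 IgG libraries in Kit+ CD45+ cells, where 0.96% of all genes did so. The count was 0 in Kit+ CD45- cells (background 0.916%) and in Kit- CD41+ cells (1.07%). The 7 mitochondrial genes had positive antibody folds in every population, with medians of 0.27 in Kit+ CD45-, 0.13 in Kit- CD41+ and 0.37 in Kit+ CD45+ cells. None was called. At an unadjusted p under 0.05 there were 3, 0 and 4 of them.

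**Figure D5:**
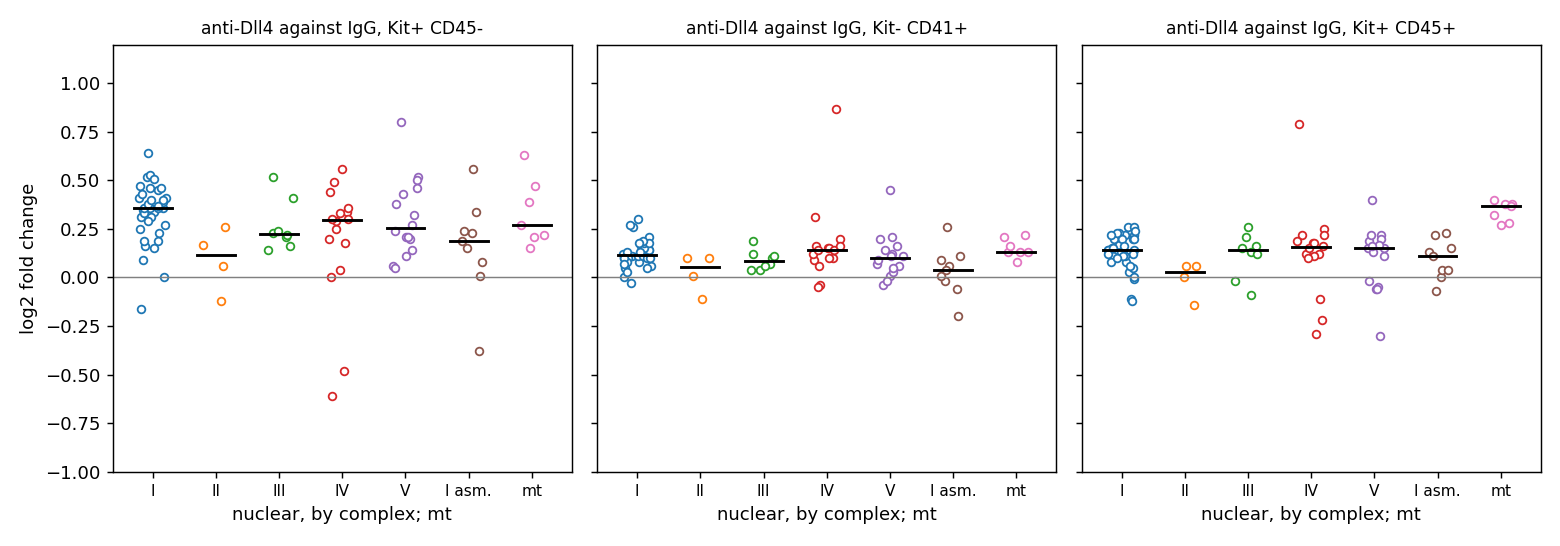
Log2 fold changes of anti-Dll4 against IgG for the 96 tested members (points) by complex and for mitochondrial genes (mt) in each population, with medians as black bars. Most points lie above 0 and none passed an adjusted p of 0.05.

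Genes outside the list that serve the same system were read from lists of the wider pathway, and those named below were chosen after their values were seen. Of 77 tested genes of the mitochondrial ribosome, which translates the mitochondrially encoded subunits, 11 were lower and 1 higher in Kit+ CD45+ than in Kit+ CD45- cells under IgG (edgeR). Under anti-Dll4 37 were lower and 2 higher, with medians of -0.27 and -0.48. Over all tested genes 9.18% and 12.6% were lower and 10% and 16.6% higher, so the lower calls lay above the background in both arms and the higher calls below it. Of the 37 tested assembly factors outside the member list, 2 were lower under IgG, a share below the background, and 7 under anti-Dll4, somewhat above it, with none higher. Of the 16 enzymes of the tricarboxylic acid cycle, 1 and 2 were lower, which is no more than the background. Cyc1, the cytochrome c1 of complex III, which the name rule misses, fell by 0.62 ± 0.14 (SE) under anti-Dll4 (edgeR adjusted p = 0.00254). Of the 8 tested carriers of ADP, phosphate and protons, 2 were lower and 1 higher under IgG, and 2 lower and 2 higher under anti-Dll4. The medians of this list were -0.03 and 0.03, so it had no shared direction. Within it, Ucp2, an uncoupling protein family member of the inner membrane, fell by 1.69 ± 0.27 under IgG and fell by 2.52 ± 0.27 under anti-Dll4 (edgeR adjusted p = 6.42e-05 and 3.27e-07). Atpif1, the inhibitor of the ATP synthase, fell by 0.86 ± 0.25 and fell by 1.00 ± 0.25 (0.0179 and 0.00433, edgeR).

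The list of genes that maintain and transcribe mitochondrial DNA held 20 tested genes. In Kit+ CD45+ against Kit- CD41+ cells, 6 were higher and 2 lower under IgG, and 2 and 1 under anti-Dll4. The backgrounds were 19.7% and 17.5% under IgG and 20.4% and 17.3% under anti-Dll4. In Kit+ CD45- against Kit- CD41+ cells, 2 were higher and 1 lower under IgG (14% and 13.8%). Under anti-Dll4, 7 were higher and 0 lower (14.7% and 15.2%). The medians of these comparisons lay between 0.13 and 0.27. Tfam, which packages mitochondrial DNA, was higher in Kit+ CD45+ than in Kit- CD41+ cells by 0.47 ± 0.11 (SE, edgeR adjusted p = 0.00194) under IgG and by 0.63 ± 0.11 (1.11e-04) under anti-Dll4. From Kit+ CD45- to Kit+ CD45+ cells, 2 genes of this list were higher and 1 lower under IgG, and 0 and 1 under anti-Dll4. The medians were -0.09 and -0.14, and the backgrounds 10% and 9.18% under IgG and 16.6% and 12.6% under anti-Dll4. Tfb1m, a methyltransferase of mitochondrial ribosomal RNA, fell by 1.03 ± 0.21 from Kit+ CD45- to Kit+ CD45+ cells in both arms (0.00103 and 6.65e-04, edgeR). Top1mt, the mitochondrial topoisomerase, was higher in Kit+ CD45+ than in Kit- CD41+ cells by 1.48 ± 0.23 under IgG and by 1.36 ± 0.23 under anti-Dll4 (edgeR adjusted p = 1.61e-05 and 4.9e-05). Of the 10 tested nuclear regulators, 2 were higher and 0 lower in Kit+ CD45+ than in Kit- CD41+ cells under IgG. Under anti-Dll4 the counts were 1 and 0, and the backgrounds for higher genes were 19.7% and 20.4%. Myc was higher in Kit+ CD45+ than in Kit- CD41+ cells by 1.78 ± 0.27 and by 2.28 ± 0.28 (1.44e-05 and 5.79e-07, edgeR). None of the genes on these lists was called between the antibodies by edgeR.

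Across all 6 population comparisons, 59 of the 96 tested members were called at least once (edgeR) and 37 were called in none. That is 61.5% of the members beside 60.5% of all 15618 tested genes, so being called somewhere was as common among members as among genes at large. The 37 included all 4 complex II genes, 14 of 36 complex I subunits, 3 of 8 in complex III, 7 of 16 in complex IV, 6 of 16 in complex V, 2 of 9 assembly factors and 1 of 7 mitochondrial genes.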

How the data were processed

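RNA of 24 sorted CD31+ samples was measured by poly(A) RNA-seq after cDNA amplification by PCR without molecular identifiers, per the labels' protocols. The authors deposited raw counts per gene. The submitters' processing notes name CASAVA 1.4, FastQC, STAR, HTSeq, DESeq2 and the build mm10. For the strand setting and the annotation release, no source used here gives a value. The authors' deposited log2 table, computed here to be the log2 of counts over size factors (0.4544 to 1.56) plus 1, at most 5.2e-14 off, served only for gene names, classes and coordinates. Of the columns of per-sample values, 1 matched no sample and was not used. No 2 replicates were alike within counting noise (lowest chi-square per degree of freedom 12.2).

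Counts were tested with edgeR 4.0.16 (R 4.3.3, limma 3.58.1): TMM scaling, the default filter (15618 of 29716 genes kept), 1 coefficient per group over all libraries, 18 residual degrees of freedom, robust quasi-likelihood F-tests and Benjamini-Hochberg adjustment over all tested genes, with a threshold of 0.05. The SE is the log2 fold change divided by the square root of F. The common biological coefficient of variation was 0.343. Library totals were 8718351 to 11379830 counts and TMM factors 0.525 to 1.37. CPM uses TMM-scaled totals, and division by the joined length of all annotated exons of a gene was used only to compare genes. Counts of 14829 genes were simulated from means over all libraries and the common dispersion, with changes added to the anti-Dll4 Kit+ CD45- group. In the Kit+ CD45- antibody comparison, 18% of 100 genes changed by 1 on the log2 scale were called. Of 100 genes changed by 2, 98% were called, and there were 7 false calls.

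The genes named were all mitochondrially encoded members, the isoform families of complexes IV and V, the Sdh genes, the X-linked members and, for each comparison and class, the gene of smallest p in each direction among those past the threshold, or the gene of smallest p if none was. Not all of them are described. The members, the pathway and marker lists and the tests were chosen with earlier results of these data known. Alternatives tried were DESeq2 1.42.0, RLE and upper-quartile scaling, scaling without globin or mitochondrial genes, no filter, a stricter filter (50 counts in 4 libraries), a replicate block, globin share as covariate, fits of 2 groups alone and each library left out.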

Additional observations from a re-analysis of the deposited data

Results flagged for a closer look

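In each group of 4 libraries, a value was singled out where the highest or lowest library stood so far from the other 3 that its gap took most of the group's range (Dixon's test at the 95% level). Of 360 groups screened, 24 met this. Chance alone does so in about 1 in 20 groups, and the members of 1 library are not independent.

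Most of these values came from replicate 1 of the anti-Dll4 Kit+ CD45+ group, where members were higher than in its other replicates. The nuclear complex IV subunits summed to 5810 CPM there, against 3440 to 3780. In complex IV, Cox6b1 was at 698 CPM (others 384 to 436), Cox7a2 at 455 (253 to 277), Cox7b at 463 (262 to 293) and Cox8a at 303 (166 to 189). In complex I, Ndufa3 was at 225 CPM (132 to 140), Ndufa5 at 135 (67.9 to 77.8), Ndufa6 at 206 (110 to 126), Ndufb2 at 77.2 (42.9 to 48.3), Ndufb5 at 385 (210 to 225) and Ndufs3 at 105 (71.1 to 75.1). Uqcrb of complex III was at 203 CPM (117 to 130), Atp5c1 of complex V at 964 (674 to 722) and Atp5e at 331 (175 to 197). The mitochondrially encoded mt-Nd4 was at 546 CPM (358 to 385).

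Single values in other libraries followed no shared direction. In replicate 1 of the IgG Kit+ CD45+ group, Ndufs3 was at 55.6 CPM (others 78.6 to 82.2) and Ndufv3 at 118 (175 to 184). In the same group Atp5g2 was at 1.59 CPM in replicate 2 (1.2 to 1.25) and Ndufaf1 at 53.2 in replicate 4 (48.9 to 49.6). Atp5sl was at 49.5 CPM in replicate 3 of the anti-Dll4 Kit+ CD45+ group (39.4 to 40.1). The mitochondrial members took 0.579% of counts in replicate 3 of the IgG Kit+ CD45- group (0.481% to 0.486%), and mt-Nd2 was at 317 CPM there (239 to 251). Cox6b2 was at 68.5 CPM in replicate 4 of the IgG Kit- CD41+ group (55.3 to 57.1), and Ndufaf1 at 96.4 in replicate 4 of the anti-Dll4 Kit- CD41+ group (72.1 to 75.9).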

How the results depend on the processing

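No alternative to the edgeR test gave a member called between the antibodies. The counts of members called in the population comparisons were 7, 17 and 21 under IgG and 16, 48 and 19 under anti-Dll4 (Kit+ CD45- against Kit- CD41+, Kit+ CD45+ against Kit+ CD45-, Kit+ CD45+ against Kit- CD41+). Without a filter the first of each arm was 4 and 10. With a replicate block, 17, 21 and 19 became 39, 41 and 33, while all genes called rose from 2998, 5815 and 5875 to 3334, 6138 and 6132. The block also called Sdhd higher in Kit+ CD45+ than in Kit- CD41+ cells, by 0.27 under IgG (edgeR adjusted p = 0.0415) and 0.32 under anti-Dll4 (0.0183). The labels do not say that a replicate number marks shared embryos or a shared day, and correlations of same-numbered deviations ranged from -0.06 to 0.2 between populations and from -0.15 to 0.1 between antibodies. The sample descriptions do give the 3 populations of each antibody and replicate number a shared leading number, and the block used it for the population comparisons. What this number marks is not stated. A library correlated best with its own number, 1 of 4 candidates, in 16 of 24 cases between populations (2 of 12 between antibodies). Between populations this was more often than 1 in 4. The correlations were weak, and those of other-numbered pairs there ranged from -0.23 to 0.17. Whether these sets pair the populations is not stated, and the main fit left the sets out. A fit of the 2 groups alone gave 39 in place of 21. Leaving out 1 library gave 3 to 5, 7 to 27 and 13 to 24 under IgG and 6 to 21, 26 to 66 and 10 to 44 under anti-Dll4. Upper-quartile scaling gave 6, 23, 16, 20, 58 and 13, and DESeq2 gave 7, 24, 28, 16, 60 and 24. All genes called were 4357, 2998, 5815, 4672, 4560 and 5875 in the main fit. They were 4520, 2935, 5775, 5133, 4511 and 5845 with upper-quartile scaling and 4766, 3396, 6264, 5145, 5014 and 6281 with DESeq2. Leaving out replicate 1 of Kit+ CD45- IgG and of Kit+ CD45+ IgG together, chosen after seeing the data, gave 6, 15, 15, 16, 56 and 24. Of 95 single-gene results, 93 kept direction and call with DESeq2, 88 with upper-quartile scaling and 91 with the block. Direction was reversed in 6 antibody or population folds, none of which was called. With globin as covariate, the antibody folds in Kit- CD41+ cells became -0.05 for Ndufs3, -0.05 for Sdhc and -0.03 for Ndufaf1. With 1 library left out, Ndufb5 in Kit+ CD45+ cells ranged from -0.02 to 0.33 and Sdha from -0.30 to 0.04 between antibodies, and Sdhb from -0.20 to 0.03 between Kit+ CD45+ and Kit+ CD45- cells under IgG. Without globin in the denominator, the mitochondrial share became 0.700%, 0.807%, 0.625% and 0.684% and the nuclear share 3.33%, 3.71%, 2.85% and 2.97% in the groups Kit+ CD45- IgG, Kit+ CD45- anti-Dll4, Kit- CD41+ IgG and Kit- CD41+ anti-Dll4. The causes of these shifts were not tested, apart from the smaller denominator of the last.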
